A study of Mus musculus with 6 samples.

Results

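Basement membrane genes were followed in the tibialis anterior, a fast muscle of the lower leg, of C57BL/6 mice. The set was chosen by gene name, with earlier results of these data known, and holds 7 genes, Col4a1, Col4a2, Col15a1, Nid1, Nid2, Lama2 and Lama4. Of these, 6 had a row among the 11239 genes of the deposited tables, and Lama4 was not analysed here. Total RNA was sequenced from 3 samples of aged mice, 18 months old, and 3 samples of young mice, 3 months old. No genotype, transgene or treatment is given for either group, and the study concerned muscle-derived G-CSF and the loss of muscle stem cells with age. The labels do not say whether each sample came from its own animal, so the p-values measure the spread between these samples.

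A basement membrane is a thin protein sheet that wraps each muscle fibre, each capillary and each Schwann cell. Laminins, trimers of an α, a β and a γ chain, polymerise at the cell surface and bind receptors there, while type IV collagen forms a second, crosslinked network. Nidogens bind both laminin and type IV collagen, and the proteoglycan perlecan and the multiplexin collagens attach to the sheet. In muscle, the laminin α2 chain encoded by Lama2 links the fibre surface to this sheet, and its loss causes congenital muscular dystrophy in humans and mice. Muscle stem cells lie between the sheet and the fibre.

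Col4a1 and Col4a2 lie head to head on chromosome 8 and are known to share a promoter region. In the deposited tables Col4a1 spans chr8:11198423-11312826 and Col4a2 spans chr8:11312805-11449287, positions that follow GRCm38. The strands, minus for Col4a1 and plus for Col4a2, are from the GENCODE M21 annotation. The spans of the pair overlap by 22 bases, chr8:11312805-11312826, which are shown because each gene begins within them. For Nid1, the gene with the largest fall of the set, the 250 bases before its start, chr13:13437352-13437601, are shown beside it. Both sequences are from RefSeq (GRCm38.p6), on the plus strand, and capitals mark GGGCGG and CCAAT on either strand.
Col4a1-Col4a2 shared start: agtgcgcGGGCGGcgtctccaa
Nid1 upstream: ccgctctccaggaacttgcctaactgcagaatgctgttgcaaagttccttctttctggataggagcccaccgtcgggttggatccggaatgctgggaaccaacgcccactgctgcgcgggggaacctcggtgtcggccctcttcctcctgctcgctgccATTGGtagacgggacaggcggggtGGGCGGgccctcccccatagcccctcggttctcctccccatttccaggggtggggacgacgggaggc

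RefSeq windows of 250 bases before to 50 bases after the start were at hand for 5 of the genes, Col4a1, Col4a2, Col15a1, Nid1 and Lama2. The RefSeq start lay inside the deposited span of Lama2, at chr10:27616942, and before that of Col15a1, at chr4:47208012. GGGCGG or its complement CCGCCC occurred in the windows of Col4a1, Col4a2, Nid1 and Lama2, and in 35.7% of all 32851 windows. CCAAT or ATTGG occurred in those of Col4a1, Col4a2 and Nid1, and in 37.4% of all windows. TATAAA or TTTATA occurred in none of the 5, and in 13.6% of all windows. The GC content was 74.0% for Col4a1, 73.7% for Col4a2, 64.7% for Nid1, 52.3% for Col15a1 and 50.3% for Lama2, where the median of all windows was 52.7%. The windows of Col4a1 and Col4a2 share 78 bases, so the GGGCGG in capitals above is the same match in both.

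The library totals recovered from the values in FPKM, a fragment count divided by transcript length and library total, lay between 89919530 and 101057913 fragments in the aged and between 71984420 and 102135094 in the young libraries. Log2 values correlated at 0.993 to 0.996 within a group and at 0.962 to 0.975 between groups. Fibre genes dominated all libraries, with the skeletal muscle actin gene Acta1 at 20334 to 25040 FPKM in aged and 28284 to 31097 FPKM in young samples. Aged replicate 3 stood apart for the glycolytic gene Gapdh, at 67.3 FPKM against 689 and 645 FPKM in aged replicates 1 and 2 and 557 to 736 FPKM in young samples. That library was also the lowest for Col4a1, Col4a2, Col15a1 and Nid1. Without it the log2 changes of the 6 genes ran from −1.22 for Nid1 to −0.41 for Col15a1, and all 6 passed (limma adjusted p of at most 0.044).

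All 6 genes were lower in aged muscle, and for each of them the 3 aged values lay below the 3 young ones. The fall ranged from 2.59-fold for Nid1 to 1.41-fold for Col15a1. All 6 passed at an adjusted p under 0.05 (limma on log2(FPKM + 1), Benjamini-Hochberg over the 7690 genes that averaged 1 FPKM or more). Of the genes tested, 51.8% were called, 24.5% as lower and 27.3% as higher in aged muscle. Groups without overlap were found for 29.0% of the genes tested with aged below young, and for 33.8% with aged above young. The median log2 change of the 6 genes was −0.74, beside 0.02 for all genes tested. Each of the 6 averaged over 1 FPKM in both groups. In whole muscle, fewer cells of a kind and less RNA per cell cannot be told apart.

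**Figure D1:**
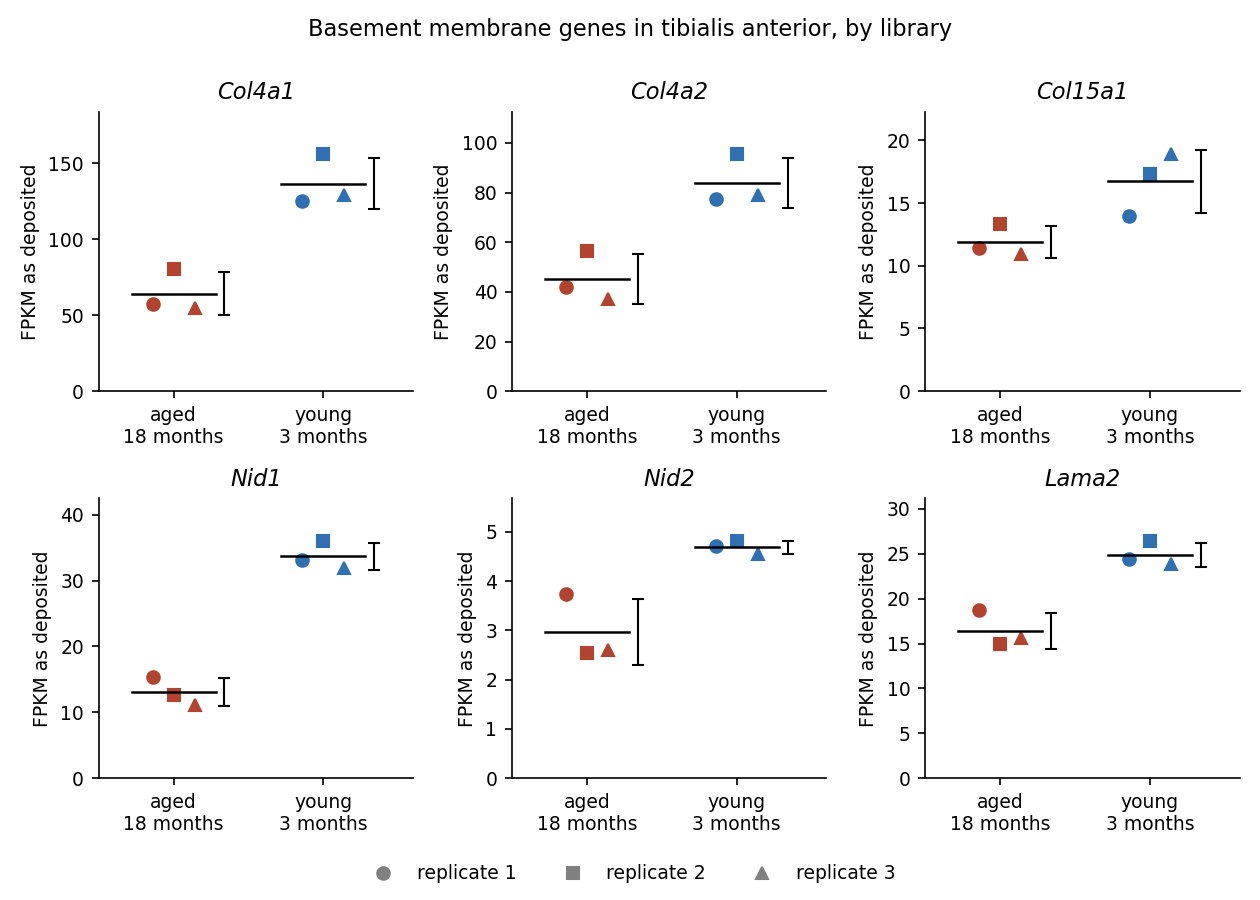
FPKM as deposited (y axis, from 0) of 6 basement membrane genes in 3 aged and 3 young libraries, with the group mean (line) and SD (bar) and 1 symbol per replicate number. In each panel the 3 aged values lie below the 3 young values, and aged replicate 2 is the highest aged library for Col4a1, Col4a2 and Col15a1 while aged replicate 1 is the highest for Nid1, Nid2 and Lama2.

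Among the network-forming chains, Col4a1, which encodes the α1 chain of type IV collagen, was at 57.6, 80.4 and 54.8 FPKM in aged replicates 1, 2 and 3, against 125, 156 and 129 FPKM in young replicates 1, 2 and 3. Replicate 2 was the highest library in each group, and the groups did not overlap. Its mean was 64.3 ± 14.0 FPKM in aged and 137 ± 17.2 FPKM in young muscle (SD, n = 3 each), 2.13-fold lower in aged muscle. The log2 change was −1.09 ± 0.15 (SE, limma adjusted p = 0.00107), and 1.85% of the genes tested had a lower value of the change. These values rest on 10555 to 15614 fragments in aged and 24106 to 28245 in young libraries.

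Col4a2, the gene of the α2 chain that assembles with α1, was at 41.9, 56.5 and 37.3 FPKM in aged and at 77.3, 95.5 and 79.2 FPKM in young replicates 1, 2 and 3. It followed the same order of libraries as Col4a1 within the aged group, and replicate 2 was again the highest of both groups. The mean was 45.2 ± 10 FPKM in aged and 84.0 ± 9.98 FPKM in young muscle, with a log2 change of −0.89 ± 0.15 (limma adjusted p = 0.00255).

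Col15a1 (chr4:47208161-47313167) encodes a multiplexin collagen found where basement membranes meet the surrounding fibrous matrix, and mice that lack it have a mild muscle disease. It stood at 11.4, 13.3 and 10.9 FPKM in aged and at 14.0, 17.3 and 18.9 FPKM in young replicates 1, 2 and 3. The gap between the groups was narrow, since aged replicate 2 lay just under young replicate 1. Its log2 change, −0.46 ± 0.12 (limma adjusted p = 0.0133), was the smallest of the set. The call was lost when the p-values were adjusted over all annotated genes (adjusted p = 0.0958, limma).

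The nidogens link the laminin and collagen networks. Nid1 (chr13:13437602-13512275) was at 15.3, 12.7 and 11.1 FPKM in aged and at 33.2, 36.0 and 31.9 FPKM in young replicates 1, 2 and 3. The highest aged value was less than the lowest young one by more than the range within either group. The mean was 13 ± 2.12 FPKM in aged and 33.7 ± 2.12 FPKM in young muscle, a log2 change of −1.32 ± 0.11 (limma adjusted p = 0.000143). It ranked 98 among the 7690 genes tested, counted from the largest fall.

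Nid2 (chr14:19751257-19811787), the second nidogen gene, was at 3.73, 2.55 and 2.60 FPKM in aged and at 4.71, 4.81 and 4.55 FPKM in young replicates 1, 2 and 3. The young libraries were close together, and aged replicate 1 was the highest aged library. Its log2 change was −0.54 ± 0.12 (limma adjusted p = 0.00722, and adjusted p = 0.0521 over all annotated genes). The mean fell to 2.96 ± 0.671 FPKM in aged muscle, against 4.69 ± 0.130 FPKM in young muscle, from 1130 to 1843 and 1692 to 2279 fragments per library.

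Lama2 (chr10:26980036-27619758), the gene of the α chain of the fibre-surface laminin, was at 18.7, 14.9 and 15.6 FPKM in aged and at 24.4, 26.4 and 23.9 FPKM in young replicates 1, 2 and 3. As with Nid2, aged replicate 1 was the highest of the aged libraries. The mean was 16.4 ± 1.99 FPKM in aged and 24.9 ± 1.30 FPKM in young muscle, 1.52-fold lower in aged muscle (log2 change −0.58 ± 0.09, limma adjusted p = 0.00181).

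Levels can be compared between genes only per length, and the length behind the deposited FPKM matters here. The recovered length was 2141 bases for Col4a1, which is the mean length of its 8 annotated transcripts, whereas the longest of them has 6615 bases. The same held for Col4a2 (2712 bases against 6450) and Col15a1 (1945 against 5172). For Nid1 and Nid2 the recovered lengths, 6046 and 4884 bases, were close to the longest transcripts, and Lama2 had 3637 bases against 9614. Of 6844 genes with 2 or more annotated transcripts and at least 1000 fragments, 77.0% had the mean transcript length (GENCODE M21, within 0.5 base) and 1.2% the longest. The change of a gene with age does not depend on this length except through the pseudocount and the minimum.

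Per length of the longest transcript, Col4a1 averaged 20.8 ± 4.53 FPKM in aged and 44.3 ± 5.56 FPKM in young muscle, and Col4a2 19.0 ± 4.21 and 35.3 ± 4.19 FPKM in aged and young muscle. Nid1 averaged 12.9 ± 2.11 FPKM in aged and 33.5 ± 2.10 FPKM in young muscle on this scale. In young muscle Nid1 and Col4a2 overlapped, at 31.7 to 35.8 and 32.5 to 40.1 FPKM, although the deposited values set them far apart. In aged muscle Nid1 lay below both collagen genes, at 11 to 15.2 FPKM, while Col4a1 and Col4a2 overlapped at 17.7 to 26.0 and 15.7 to 23.8 FPKM. Lama2 followed at 6.20 ± 0.753 FPKM in aged and 9.41 ± 0.493 FPKM in young muscle, then Col15a1 at 4.46 ± 0.484 and 6.30 ± 0.934 FPKM in aged and young muscle, and Nid2 was the lowest. In aged muscle the deposited values set Lama2 (16.4 FPKM) above Nid1 (13 FPKM), and the longest transcripts set Nid1 above Lama2.

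**Figure D2:**
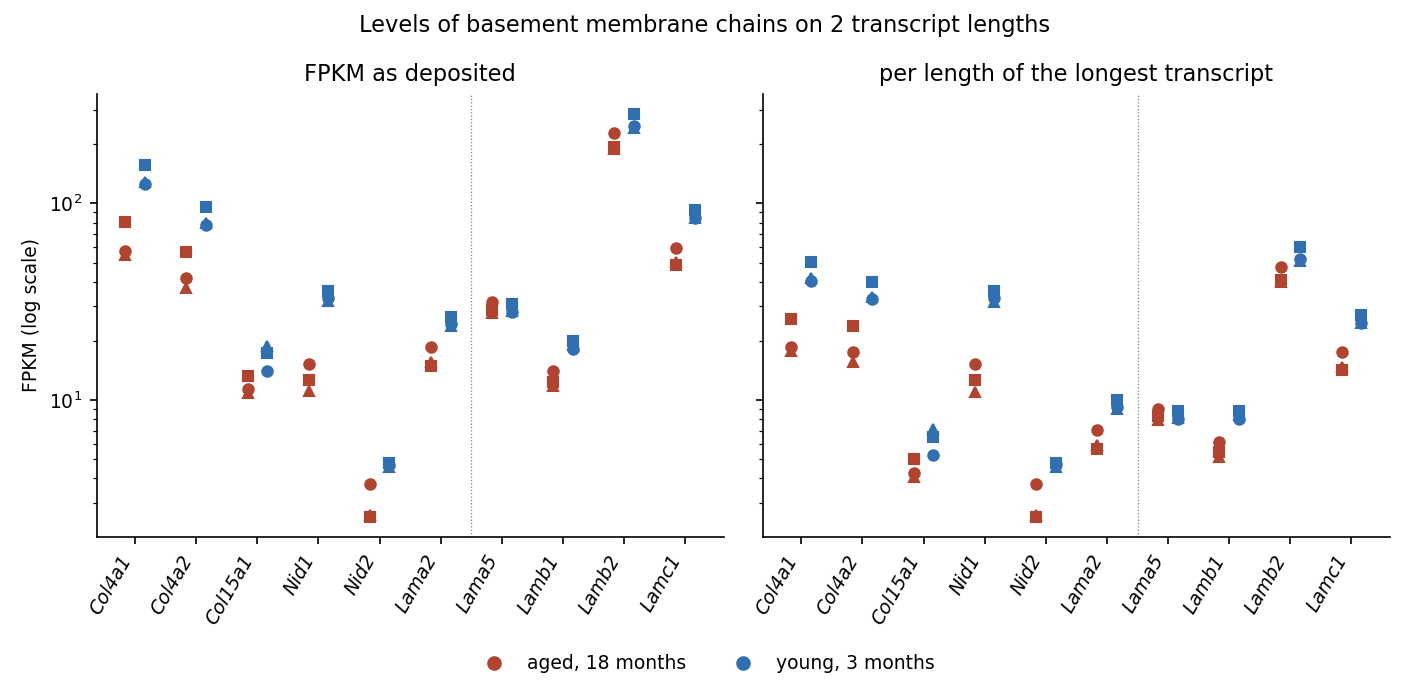
FPKM on a log scale (y axis) of 6 basement membrane genes and, right of the dotted line, 4 further laminin chains, as deposited (left panel) and per length of the longest annotated transcript (right panel), with 1 symbol per library and aged left of young. The right panel lowers Col4a2 to near Nid1 in young muscle and lowers Lamb2 to between 39.7 and 59.9 FPKM.

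Ratios between paired genes were compared within each library. The ratio of Nid1 to Nid2, per length of the longest transcript, was 4.06, 4.93 and 4.23 in aged and 6.98, 7.42 and 6.94 in young replicates 1, 2 and 3. The ratio of Col4a1 to Col4a2 on this scale was 1.06, 1.10 and 1.13 in aged and 1.24, 1.26 and 1.26 in young replicates 1, 2 and 3. Neither ratio overlapped between the groups. Type IV collagen trimers of this kind hold more α1 than α2 chains. The log2 ratio differed by −0.70 for the nidogens and by −0.19 for the collagen pair, aged minus young, and each gave p = 0.1 in an exact two-sided permutation test, the smallest p that 3 against 3 samples allow (adjusted p = 0.1 over the 5 ratios tested).

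The other ratios set a member against a gene outside the set. Col15a1 relative to Col18a1, the second multiplexin gene, was 2.27 ± 0.204 in aged and 1.81 ± 0.193 in young muscle (SD, n = 3 each, longest transcripts). Col4a1 relative to Col1a1, a chain of the fibrillar type I collagen, was 2.14 ± 0.475 in aged and 0.245 ± 0.0677 in young muscle, and Col1a1 itself was 19.4-fold lower in aged muscle. Col4a1 relative to Pecam1, an adhesion molecule of endothelial cells, was 0.801 ± 0.105 in aged and 1.2 ± 0.0725 in young muscle. All 3 ratios were free of overlap between the groups, again with exact permutation p = 0.1 and adjusted p = 0.1. With a pseudocount of 1 FPKM, the log2 difference of the Col15a1 to Col18a1 ratio was 0.19 instead of 0.33, with exact permutation p = 0.3.

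**Figure D3:**
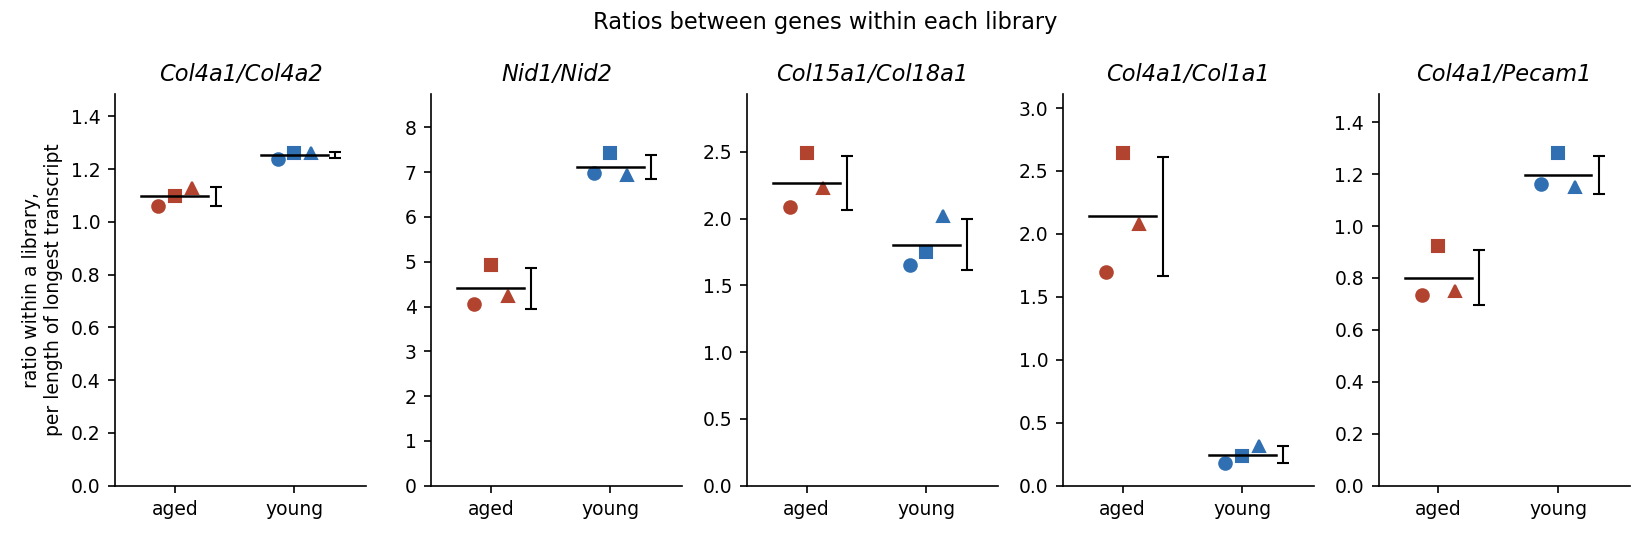
Ratios between genes within a library, per length of the longest annotated transcript (y axes from 0), in 3 aged and 3 young libraries, with mean (line) and SD (bar). Circles, squares and triangles are replicates 1, 2 and 3. The Nid1/Nid2, Col4a1/Col4a2 and Col4a1/Pecam1 ratios are lower in aged muscle, and the Col15a1/Col18a1 and Col4a1/Col1a1 ratios are higher.

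The other genes of the sheet and of its making were taken from 6 lists that hold 72 genes, of which 63 were in the tables and 48 were tested. The counts were 25 lower, 6 higher and 17 not past the threshold, and the median log2 change was −0.36. The shares called among all genes tested, 24.5% lower and 27.3% higher, are the background for these counts. Adjusted over all annotated genes, 19 of the 25 falls and 3 of the 6 rises passed. Each count of 0 given for a list in limma was also 0 at an unadjusted p under 0.05 and by voom on the recovered fragment counts.

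Of 5 other chains of the type IV, XV and XVIII collagens, 2 were tested and both fell. Col18a1, whose product is a multiplexin that carries endostatin, was at 2.92 ± 0.166 FPKM in aged and 5.15 ± 0.386 FPKM in young muscle (log2 change −0.65 ± 0.08, limma adjusted p = 0.000598). Col4a3, an α chain best known from the kidney filter, was at 0.677 ± 0.08 FPKM in aged and 1.36 ± 0.263 FPKM in young muscle. Its mean passed the minimum of 1 FPKM through the young group, and without young replicate 1 or 2 it was no longer tested.

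Of 9 other laminin chains, 5 were tested, 3 fell and 0 rose. Lamc1, the γ chain that most laminins share, fell to 52.7 ± 5.85 FPKM in aged muscle, against 86.8 ± 4.66 FPKM in young muscle (log2 change −0.71 ± 0.09, limma adjusted p = 0.000619). The β chains Lamb1 and Lamb2 changed by −0.55 ± 0.08 and −0.35 ± 0.09 on the log2 scale, with Lamb2 at 227, 194 and 189 FPKM in aged and 248, 286 and 243 FPKM in young replicates 1, 2 and 3. Lamb2 no longer passed when young replicate 2 was left out (limma adjusted p = 0.0502), nor with adjustment over the whole annotation (adjusted p = 0.104). Lama5, an α chain of many basement membranes, was at 29.4 ± 2.06 FPKM in aged and 29.1 ± 1.40 FPKM in young muscle and did not pass, with a 95% interval of the log2 change from −0.15 to 0.17. That interval does not reach the change of Lama2, whose own ran from −0.79 to −0.37, and the difference between both genes was not tested. The other gene that did not pass was Lamb3 (log2 change 0.07 ± 0.11).

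Of 18 proteoglycans and other components, 12 were tested, of which 7 fell and 1 rose. The 3 chains of type VI collagen, which joins the sheet to the fibrous matrix, had the largest falls, Col6a1 by 1.54, Col6a2 by 1.40 and Col6a3 by 0.95 on the log2 scale. Hspg2, the gene of perlecan, was at 41.2 ± 5.73 FPKM in aged and 59.9 ± 7.74 FPKM in young muscle (limma adjusted p = 0.00918, and adjusted p = 0.0662 over all annotated genes), and was picked after its values were seen. Npnt, which encodes nephronectin, an integrin ligand, went the other way, at 4.58, 6.01 and 5.11 FPKM in aged and 2.16, 2.13 and 2.43 FPKM in young replicates 1, 2 and 3 (log2 change 0.94 ± 0.10, limma adjusted p = 0.000356). Agrn, the gene of agrin, a proteoglycan that binds dystroglycan, and Egflam, the gene of pikachurin, did not pass (−0.09 ± 0.08 and −0.05 ± 0.09).

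Of 13 genes for folding, secretion and crosslinking of type IV collagen, 10 were tested, of which 8 fell and 1 rose. Sparc, whose product binds collagen, fell 5.93-fold, and Lox, a lysyl oxidase gene, 3.36-fold. Loxl2, whose enzyme crosslinks one end of type IV collagen, was at 1.03 ± 0.116 FPKM in aged and 2.82 ± 0.422 FPKM in young muscle. Plod1, a lysyl hydroxylase gene, changed by −0.82 ± 0.09. Several of these proteins also serve fibrillar collagens. P4ha1, a prolyl hydroxylase gene, did not pass, at 11.9 ± 0.975 FPKM in aged and 11.8 ± 0.612 FPKM in young muscle. The gene that rose was Mia3, of collagen export from the endoplasmic reticulum, named after its values were seen (1.15-fold, limma adjusted p = 0.0204). That call was lost over all annotated genes (adjusted p = 0.147) and when aged replicate 1 or any 1 young library was left out.

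Of 12 genes for breakdown and its inhibitors, 11 were tested, 5 fell and 1 rose. Mmp2, the gene of a gelatinase that cuts type IV collagen, was at 27.7 ± 6.86 FPKM in aged and 61.9 ± 4.98 FPKM in young muscle (log2 change −1.15 ± 0.15, limma adjusted p = 0.000898). Its inhibitor genes Timp2 and Timp3 changed by −0.68 ± 0.17 and −0.85 ± 0.14, and Bmp1, a protease gene that processes procollagen and laminin chains, by −0.92 ± 0.09. The Timp2 call was lost over all annotated genes (adjusted p = 0.0977). Adamts1 and Timp4 did not pass. The gene that rose was Mmp15, named after its values were seen (16.7 ± 1.86 FPKM in aged and 12 ± 0.627 FPKM in young muscle).

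On the cell side, of 15 receptor and dystrophin complex genes, 9 were in the tables and 8 were tested. In the limma fit 0 fell, 3 rose and 5 did not pass, and without aged replicate 3 Sgcb was called lower (limma adjusted p = 0.0363). Sgcd, a sarcoglycan gene, was at 12.8 ± 1.89 FPKM in aged and 8.82 ± 0.130 FPKM in young muscle (log2 change 0.48 ± 0.10, limma adjusted p = 0.00547). Bcam, the gene of a laminin receptor, changed by 0.33 ± 0.09 and Dmd, the dystrophin gene, by 0.27 ± 0.07. The calls of Bcam and Dmd were lost over all annotated genes (adjusted p = 0.104 and adjusted p = 0.0749). Sgcb, another sarcoglycan gene, did not pass (−0.13 ± 0.06).

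**Figure D4:**
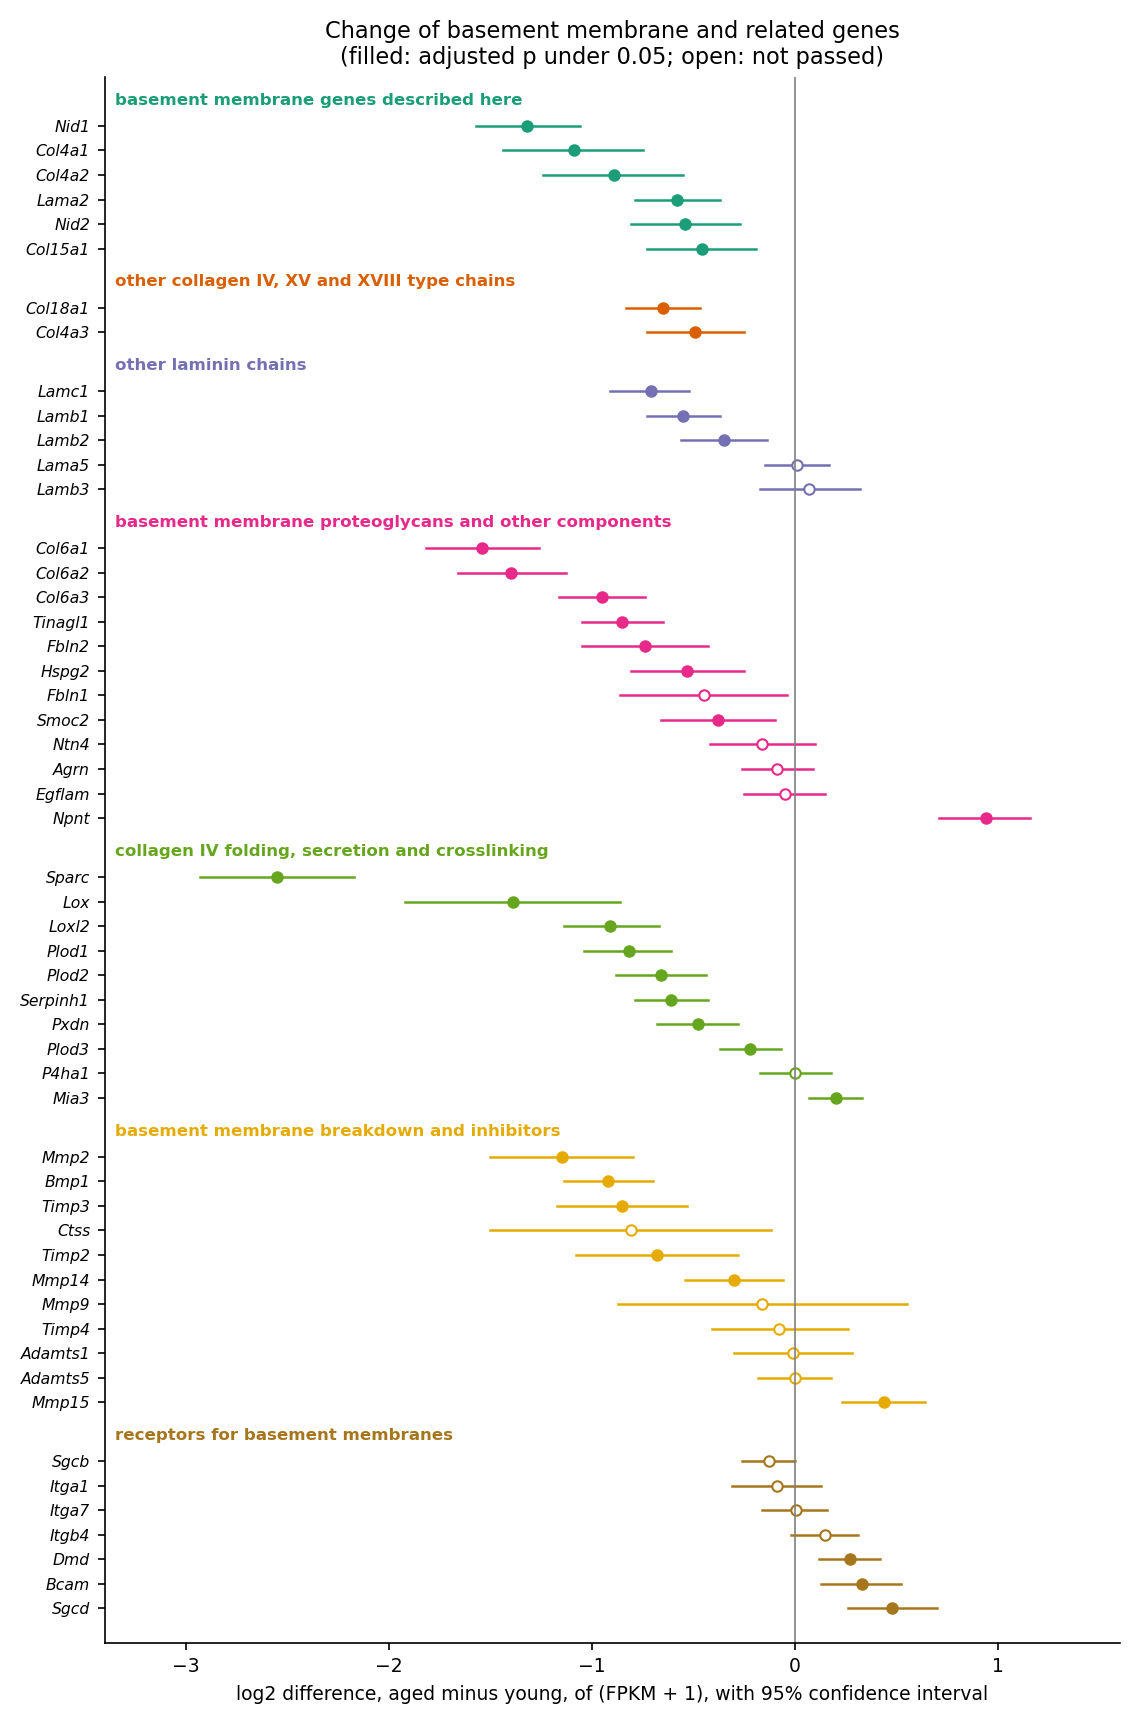
Log2 difference of FPKM + 1, aged minus young (x axis), with its 95% confidence interval, for the 6 basement membrane genes and for 47 of the 48 tested genes of the 6 related lists. Filled points passed at an adjusted p under 0.05 and open points did not. The 6 genes lie between −1.32 and −0.46, and the receptor genes lie between −0.13 and 0.48.

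The fibrillar collagens form the fibrous matrix outside the sheet. Of 8 such genes, 7 fell and 0 rose, where 24.5% of all genes tested were called lower and 27.3% higher. The median log2 change was −1.98, beside −0.74 for the basement membrane genes. Col1a1 was at 32.6 ± 4.07 FPKM in aged and 631 ± 166 FPKM in young muscle, and Col1a2, Col3a1 and Col11a1 changed by −3.62, −2.67 and −2.30 on the log2 scale. Col11a1 (0.295 FPKM in aged, 5.44 in young) passed the minimum of 1 FPKM through the young group. Col5a3, at 7.18 ± 2.22 FPKM in aged and 8.13 ± 0.550 FPKM in young muscle, did not pass, but was called lower without aged replicate 2 (log2 change −0.39, limma adjusted p = 0.0483).

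Basement membranes are made by several cell types, and marker genes of some of them were lower in aged muscle as well. The background for all marker counts is the share called among all genes tested, 24.5% lower and 27.3% higher. Of 14 endothelial markers, 10 fell and 1 rose, and their summed FPKM ran from 316 to 375 in aged and from 406 to 465 in young libraries. Aged replicate 2, the highest aged library for Col4a1 and Col4a2, also had the highest endothelial sum of the aged group, and young replicate 2 that of the young group. Of 8 fibro-adipogenic progenitor markers, 6 fell and 0 rose, with sums of 508 to 747 in aged and 864 to 1192 in young libraries. The highest progenitor sum was in replicate 1 of each group. Nid1, Nid2 and Lama2 were also highest in aged replicate 1, but among young libraries they were highest in replicate 2. Among the progenitor markers that fell, Cd34 is also counted with the endothelial markers. Col6a1 is also counted with the other basement membrane components, so the lists are not independent. Of 7 tendon markers 6 fell and 0 rose, with sums of 91.3 to 107 in aged and 211 to 404 in young libraries. Of these, Kera (0.595 FPKM in aged, 4.89 in young) and Mkx (0.530 in aged, 2.21 in young) passed the minimum of 1 FPKM through the young group. No marker of these lists was at 0 in all libraries. Their part in the fall of the basement membrane genes was not tested.

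Of 7 Schwann cell markers 3 fell and 0 rose, with sums of 66.3 to 69.3 in aged and 90.5 to 104 in young libraries. Of these, Ncmap (0.792 FPKM in aged, 1.39 in young) passed the minimum of 1 FPKM through the young group. Of 6 macrophage markers 4 fell and 0 rose (median log2 change −0.75), with sums of 15.9 to 35.2 and 34.7 to 57.0 in aged and young libraries. Among them Adgre1 (0.861 FPKM in aged, 1.57 in young), which was not called, reached the minimum of 1 FPKM through the young group. Of 7 pericyte and smooth muscle markers 3 fell and 1 rose, and the sums overlapped, at 226 to 239 in aged and 233 to 257 in young libraries. Of 9 muscle fibre genes 3 fell and 2 rose, with sums of 87620 to 91618 in aged and 91333 to 97480 in young libraries. Of 5 tested adipocyte markers 1 fell and 3 rose. Each of these counts rests on few genes, beside 24.5% lower and 27.3% higher among all genes tested. The summed FPKM of the 6 basement membrane genes, which Col4a1 and Col4a2 dominate, ran from 132 to 180 in aged and from 278 to 336 in young libraries, a fall of 1.96-fold. The sums of the marker lists were lower in aged muscle by 3.23-fold for tendon, 1.81-fold for macrophages, 1.6-fold for progenitors, 1.41-fold for Schwann cells and 1.22-fold for the endothelium.

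**Figure D5:**
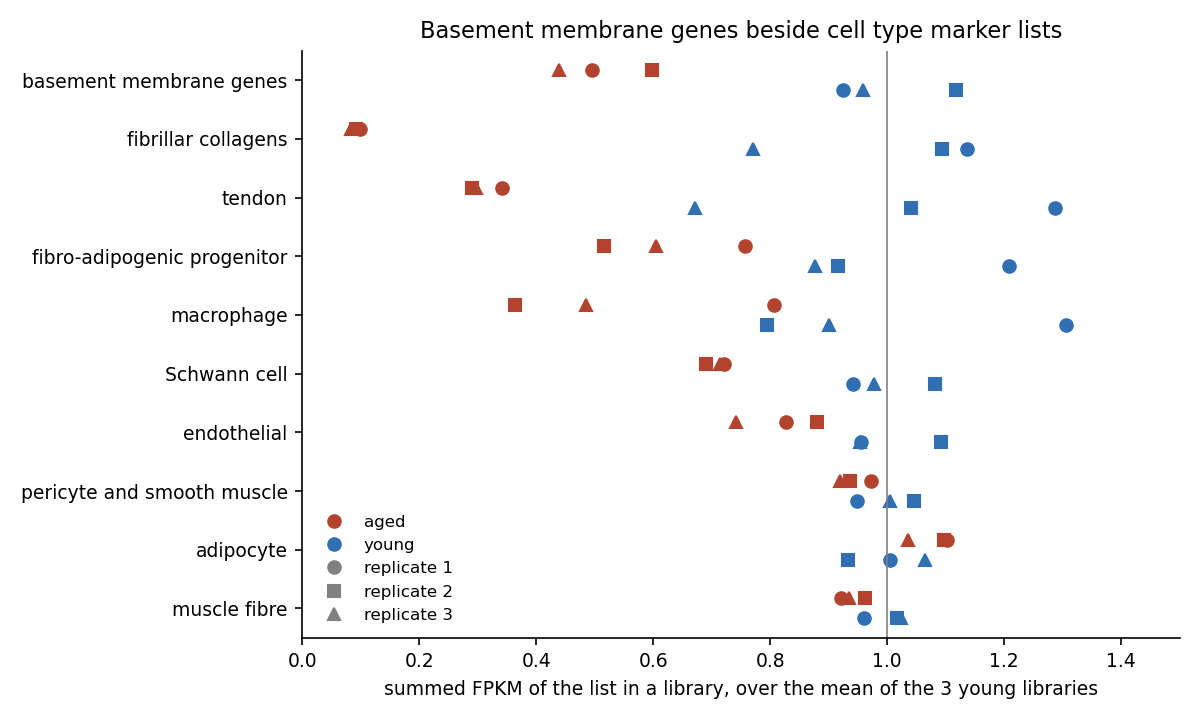
Summed FPKM of a gene list in each library, divided by its mean over the 3 young libraries (x axis), for the 6 basement membrane genes, the fibrillar collagens and 8 lists of cell type markers, with aged above young. The aged values of the basement membrane genes lie left of all young values, as do those of the fibrillar collagens, tendon, progenitor, Schwann cell and endothelial lists, whereas the macrophage, pericyte, adipocyte and muscle fibre lists overlap.

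Profiles over the 6 libraries were also set beside those of other genes. For each gene, the nearest of 7141 other tested genes were found by the root mean square difference of log2(FPKM + 1), after each profile had lost its own mean. Nearest to Col4a1 were Notch4, a Notch receptor gene (0.0643), Kank3 (0.0966) and Col4a2 (0.103). Nearest to Col4a2 were Notch4 (0.0740), Car4, a carbonic anhydrase gene (0.0887), and Sox17, a transcription factor gene (0.0949), while Col4a1 ranked 7. Notch4 was at 15.4, 19.5 and 13.7 FPKM in aged and at 31.4, 39.0 and 30.4 FPKM in young replicates 1, 2 and 3, so that replicate 2 was the highest of each group, as for both collagen genes.

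Nid2 and Lama2 resembled each other more than they did the collagen genes. Their profiles differed by 0.0558, which placed Lama2 at rank 7 from Nid2 and Nid2 at rank 15 from Lama2, whereas Lama2 and Col4a1 differed by 0.353. Nearest to Lama2 were Tle4, a corepressor gene (0.0262), Jak2, a cytokine receptor kinase gene (0.0362), and Ptpn13, a phosphatase gene (0.0421). Nearest to Nid2 were Aebp1, of an extracellular matrix protein (0.0429), Wnk2 (0.0483) and Tacc1 (0.0501). Nearest to Nid1 were Col5a1, a chain of type V collagen (0.0846), Hif3a (0.110) and Col6a2 (0.111). Nearest to Col15a1 were Sars2 (0.0722), Lrrc52 (0.0814) and Jun (0.0842). Hif3a (0.563 FPKM in aged, 2.75 in young) and Lrrc52 (0.978 in aged, 1.49 in young) passed the minimum of 1 FPKM through the young group. All these distances describe 6 libraries in 2 groups and carry no test.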

How the data were processed

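Muscle RNA was isolated with TRIzol before Illumina library preparation, per the labels' protocols. FPKM values, with each library in its own file, were deposited by the authors. The submitters' processing notes name bcl2fastq 2.19, TopHat, DESeq2 and the build mm9, while the positions in the tables follow GRCm38. How the listed genes were chosen, and the counting of strand, are not stated in these sources. A line of every file held no values and was left out.

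Values were taken as log2(FPKM + 1), without further scaling, for the 7690 genes that averaged 1 FPKM or more, and fitted by limma 3.58.1 under R 4.3.3 (empirical Bayes with a trend, two-sided, Benjamini-Hochberg adjustment, adjusted p under 0.05). Log2 changes understate the change of low genes. Library totals, whole fragment counts and gene lengths were recovered from the FPKM values. A length was accepted only where every library came within 0.001 of a whole count. Of the genes with values above 0, 11175 had such a length and 0 had none. In a test on simulated data, 6 of 6 totals and the counts of 99.8% of 2967 genes were returned exactly. A count of 3 fragments per kb corresponds to 0.0294 to 0.0417 FPKM. The fit was also tested on simulated data.

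Libraries with the same replicate number in both groups deviated together from their group means (r = 0.177, 0.182 and 0.136 across genes) and those with other numbers did not (−0.192 to 0.0358). Deviations within a group cancel, so the values for other numbers depend on those for the same number. No label says that the numbers pair the samples, and the main fit had no block. A fit with the replicate number as a block was run beside it. Alternatives were other pseudocounts, minima and scalings, robust estimation, voom on the recovered counts and leaving out each library. Adjustment over all 55450 annotated genes and the longest transcript as length were added after the data were seen. The basement membrane genes and all gene lists were chosen with earlier results of these data known. The text names, in each list, up to 4 called genes with the largest change and 2 genes of highest level that did not pass, and for each basement membrane gene the 3 tested genes nearest in profile. Predicted gene models were left out of that search, and 1 gene that the rule named is not reported here. A planned ratio of Lama2 to Lama4 was not run.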

Additional observations from a re-analysis of the deposited data

How the results depend on the processing

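All 6 basement membrane genes were lower in aged muscle in each of the 17 alternatives that could be run for them, 16 for Nid2, which lies under a minimum of 5 FPKM. Adjusted over all annotated genes, Col15a1 (log2 change −0.46, adjusted p = 0.0958, limma) and Nid2 (−0.54, adjusted p = 0.0521) no longer passed, and every other alternative kept their calls and those of the other 4. Leaving out 1 library, the log2 change ran from −1.26 to −0.99 for Col4a1, −1.06 to −0.77 for Col4a2, −0.57 to −0.37 for Col15a1, −1.43 to −1.22 for Nid1, −0.67 to −0.46 for Nid2 and −0.67 to −0.52 for Lama2, with adjusted p of at most 0.0485. The fit with the replicate block gave 6 genes lower and changed none of the calls of the named genes. Over all annotated genes, 904 genes were lower and 983 higher in aged muscle. Of the related lists, 19 genes were lower and 3 were higher. Small changes that had not passed turned sign. Lama5 was at −0.003 and P4ha1 at −0.01 with median-of-ratios scaling, P4ha1 at −0.01 with quantile normalization, and Egflam at 0.01 and Adamts1 at 0.05 with rescaling without the 20 highest genes. Leaving out 1 library, Lama5 ran from −0.04 to 0.05, Lamb3 from −0.02 to 0.14, Egflam from −0.10 to 0.04, P4ha1 from −0.06 to 0.04, Adamts1 from −0.10 to 0.12, Timp4 from −0.25 to 0.06 and Col5a3 from −0.39 to 0.01. The causes were not tested. The 5 ratios kept their direction in each alternative, with exact p of 0.1 to 0.2 without 1 library. Exact p was 0.25 in sign flips that matched libraries by replicate number. With a pseudocount of 1, Col15a1 to Col18a1 gave 0.19 (exact p = 0.3). Voom on the recovered counts and the 3 scalings changed no call of the 6 genes. Each of the 6 genes rests on over 1000 fragments in each library, and counting error was not separated from the spread between samples.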

Other observations

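Chains under the minimum of 1 FPKM were compared in the same model without the minimum, and were picked after their values were seen. Of the kidney-type chains of type IV collagen, Col4a5 was at 0.531, 0.468 and 0.407 FPKM in aged and 0.958, 1.00 and 0.813 FPKM in young replicates 1, 2 and 3 (log2 change −0.39, limma adjusted p = 0.00403). Its usual partner Col4a4 was at 0.786 ± 0.122 FPKM in aged and 0.950 ± 0.0946 FPKM in young muscle and did not pass (adjusted p = 0.177, limma), nor did Col4a6 (0.218 ± 0.0776 and 0.154 ± 0.0146 FPKM in aged and young muscle, adjusted p = 0.244, limma). Among laminin chains, Lama3 was at 0.380 ± 0.0680 FPKM in aged and 0.724 ± 0.0623 FPKM in young muscle (adjusted p = 0.00532, limma), and Lamc3 at 0.435 ± 0.0301 and 0.797 ± 0.0696 FPKM in aged and young muscle (adjusted p = 0.00337, limma). Lama1, the α chain of embryonic laminin, was at 0.0103 FPKM or less in all libraries.

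Of the genes of the Fraser complex, which anchors epithelial sheets, Fras1 was at 0.21 ± 0.1 FPKM in aged and 0.633 ± 0.193 FPKM in young muscle (adjusted p = 0.0157, limma) and Frem2 at 0.115 ± 0.0552 and 0.277 ± 0.05 FPKM in aged and young muscle (adjusted p = 0.0193, limma). Frem1 did not pass, at 0.132 ± 0.0412 and 0.235 ± 0.0514 FPKM in aged and young muscle (adjusted p = 0.0565, limma). Smoc1, of a secreted calcium-binding matrix protein, was higher, at 0.740 ± 0.178 FPKM in aged and 0.396 ± 0.0474 FPKM in young muscle (adjusted p = 0.0225, limma). Its relative Smoc2 was lower, at 23.3 ± 4.16 and 30.3 ± 1.06 FPKM in aged and young muscle (adjusted p = 0.0296, limma). The Smoc2 call was lost without the minimum (adjusted p = 0.0507, limma) and over all annotated genes (adjusted p = 0.214, limma).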
